A study of Mus musculus with 20 samples.

Results

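The genes described here concern the movement of Ca2+ across the plasma membrane and in and out of the cell's Ca2+ stores. Among them are channels and pumps, channel subunits, store sensors and a Ca2+-binding protein. They were chosen by name, with earlier results of these data known. The rule took every gene whose symbol begins with Cacna, Cacnb or Cacng, which are named as subunits of voltage-gated Ca2+ channels (26 genes). It also took 19 genes named singly, namely Stim1 and Stim2, Orai1 to Orai3, Itpr1 to Itpr3, Ryr1 to Ryr3, Atp2a2, Atp2a3, Atp2b1, Atp2b2, Atp2b4, Trpv6, S100g and Mcu. All 45 were found in both tables, of 23334 named genes in the ileum and 23361 in the macrophages. By their names they are 10 channel-forming α1 subunits, 4 α2δ, 4 β and 8 γ subunits, 2 STIM sensors, 3 ORAI channels and 3 inositol trisphosphate (IP3) receptors. The others are 3 ryanodine receptors, 2 pumps of the endoplasmic reticulum, 3 pumps of the plasma membrane, the epithelial channel Trpv6, the Ca2+-binding protein S100g and the mitochondrial uniporter Mcu.

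RNA of ileum and of macrophages grown from bone marrow was sequenced in mice lacking the orphan G protein-coupled receptor Gpr35 (Gpr35-/-) and of wild type mice (Gpr35+/+). The mice were 6 to 12 weeks old and matched for age and sex, the knock-out is a global one obtained from a repository, wild type controls were bred as littermates, and no treatment was given. There were 5 libraries per genotype and tissue, 20 in all, and the values are FPKM, fragments scaled to transcript length and library size. No source used here ties a macrophage library to its own mouse, so that p-values measure the spread between libraries.

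Most cells keep cytosolic Ca2+ low with pumps that return it to the endoplasmic reticulum or expel it, and open channels briefly to signal. Receptors that produce IP3 empty the store through IP3 receptors. STIM proteins then sense the empty store and open ORAI channels in the plasma membrane. Voltage-gated channels are best known from excitable cells, and in the intestine Trpv6 and S100g serve the vitamin D-dependent uptake of dietary Ca2+.

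Gpr35 (chr1:92950865-92986391, GRCm38) matched its labels in every library. Its level was 2.98 ± 0.513 FPKM in Gpr35+/+ and 0.0290 ± 0.0136 in Gpr35-/- ileum (SD, n = 5 each), and 2.82 ± 0.347 and 0.116 ± 0.0155 in macrophages. Summed macrophage markers stood at 2970 to 3260 FPKM in the macrophage libraries and at 49.4 to 103 in ileum. Other lists were not absent from the macrophages. Enterocyte markers summed to 333 to 444 FPKM there, with Anpep alone at a median of 340, and goblet and Paneth cell markers to 388 to 712. Enteric neuron and glia markers summed to 89.8 to 114 FPKM in macrophages against 1.31 to 2.36 in ileum. The source of these values was not tested. In the ileum the distal markers summed to 13700 to 39500 FPKM. An exact 0 in these tables can be a failed estimate: Fabp2, Apoa1 and Anpep, abundant products of enterocytes, were listed at 0 in all 10 ileum libraries, and the macrophage gene Lyz2 in all 10 macrophage libraries. The ileal bile acid binding protein Fabp6 was found in all 5 Gpr35+/+ macrophage libraries (17.6 to 73.1 FPKM) and in Gpr35-/- libraries 1 (35.0) and 5 (26.2), whereas Gpr35-/- libraries 2, 3 and 4 had 0.0984, 0 and 0.115. Counts and read depth were not given. The size of 1 read in low genes put the depth, relative to library 1 of the table, at 1 to 1.865 in Gpr35+/+ and 1.57 to 2.523 in Gpr35-/- ileum, and at 0.813 to 1 and 0.782 to 1.024 in the macrophages.

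To find out which of the Ca2+ genes each tissue uses, a gene was taken as measured where it reached at least 0.5 FPKM in at least 5 of the 10 libraries of a table. In the ileum 16 of 45 members passed (35.6%, against 49.6% of all named genes), and 17 in the macrophages (37.8%, against 49.0%). The 14 that passed in both were Stim1, Stim2, Orai1, Orai2, Orai3, Itpr1, Itpr2, Itpr3, Atp2a2, Atp2a3, Atp2b1, Mcu and the α1 subunits Cacna1a and Cacna1d. Cacnb3 and S100g passed in ileum alone, and Atp2b4, Cacna1b and Cacnb1 in macrophages alone. The remaining 26 members passed in neither tissue. Thus the STIM, ORAI, IP3 receptor and reticular pump members were all measured in both tissues, and no ryanodine receptor, α2δ or γ subunit among the members in either.

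Of the members below that level, Cacna1h, a T-type α1 subunit, came nearest in ileum at 0.340 to 0.661 FPKM, with 2 libraries at 0.5 or more. In macrophages the L-type subunit Cacna1f stood at 0.379 to 0.556 FPKM, with 3 libraries at 0.5 or more. The γ subunit Cacng8 was found in every macrophage library, at 0.314, 0.352, 0.272, 0.451 and 0.410 FPKM in Gpr35+/+ and 0.314, 0.333, 0.364, 0.390 and 0.402 in Gpr35-/-, while 5 other γ subunits (Cacng1, Cacng2, Cacng3, Cacng5 and Cacng7) were listed at 0 in all 10. The highest α2δ subunit, which helps to bring channels to the surface, was Cacna2d2 in ileum, at 0.462, 0.413, 0.285, 0.254 and 0.395 FPKM in Gpr35+/+ and 0.279, 0.230, 0.321, 0.286 and 0.293 in Gpr35-/-. In macrophages it was Cacna2d4, at 0.160, 0.102, 0.140, 0.0812 and 0.197 and at 0.102, 0.129, 0.153, 0.157 and 0.0845 FPKM. The genotypes overlapped in both. Ryr1, the release channel of skeletal muscle, was the highest ryanodine receptor, with 0.0128, 0.0738, 0.0518, 0.0457 and 0.0336 FPKM in Gpr35+/+ and 0.0776, 0.0277, 0.0693, 0.0434 and 0.0621 in Gpr35-/- ileum. In macrophages it had 0.0508, 0.0568, 0.0258, 0.0725 and 0.0409 and 0.0155, 0.0139, 0.0444, 0.0256 and 0.0364 FPKM. The highest γ subunit of the ileum, Cacng7, was listed at 0 in all libraries except Gpr35+/+ libraries 2 (0.149) and 5 (0.306) and Gpr35-/- library 3 (0.0581 FPKM). Cacng3 and Cacng6 were listed at 0 throughout the ileum, and Atp2b2, Cacna1h and Cacna2d3 were at 0 in all macrophage libraries besides the γ subunits.

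FPKM divides by transcript length, so that levels can be ranked among genes of 1 table. In the ileum Mcu, the pore of the mitochondrial uniporter, stood highest at a mean of 79.2 FPKM over 10 libraries (66.8 to 92.0) and was above Atp2a2 in each of them. Atp2a2 (SERCA2), which refills the endoplasmic reticulum, had a mean of 56.4 FPKM and Atp2a3 (SERCA3) one of 47.4, with overlapping ranges. The plasma membrane pump Atp2b1 followed at 35.4, the IP3 receptor Itpr3 at 19.7 and the store-operated channel Orai1 at 18.7 FPKM. Itpr3 exceeded Orai1 in 7 of 10 libraries, so that the order of these neighbours was not settled. Cacnb3, a β subunit that brings α1 subunits to the membrane, had 11.1 FPKM and stood below Orai1 in every library. Below it, S100g, Stim2, Stim1, Orai3, Itpr2 and Cacna1d ran from 9.07 down to 4.13 FPKM with ranges that overlapped from neighbour to neighbour. Orai2 (2.17), Itpr1 (1.75) and Cacna1a (0.563 FPKM) closed the list, and Cacna1a was set apart from Itpr1.

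The macrophages were led by Atp2b1 at 65.9 FPKM (60.8 to 75.5), above Atp2a2 at 53.3 (48.7 to 58.6) in every library. Orai3 (24.0) and Orai1 (23.3 FPKM) could not be told apart, with Orai3 higher in 6 of 10 libraries, and both lay above Stim1, the main sensor of store content, at 18.2. Atp2a3 had 17.2, Itpr3 11.4 and Orai2 11.1 FPKM. Mcu, the highest member of the ileum, stood at 8.32 FPKM, 9th of the macrophage list. Stim2 (6.27) and Cacna1a (6.17 FPKM), the α1 subunit of P/Q-type channels, overlapped. The lower end was formed by Itpr2, Itpr1, Atp2b4, the N-type subunit Cacna1b, Cacnb1 and Cacna1d, from 4.53 down to 1.03 FPKM. The 2 tables were scaled separately, so that these levels were not tested between the tissues.

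**Figure D1:**
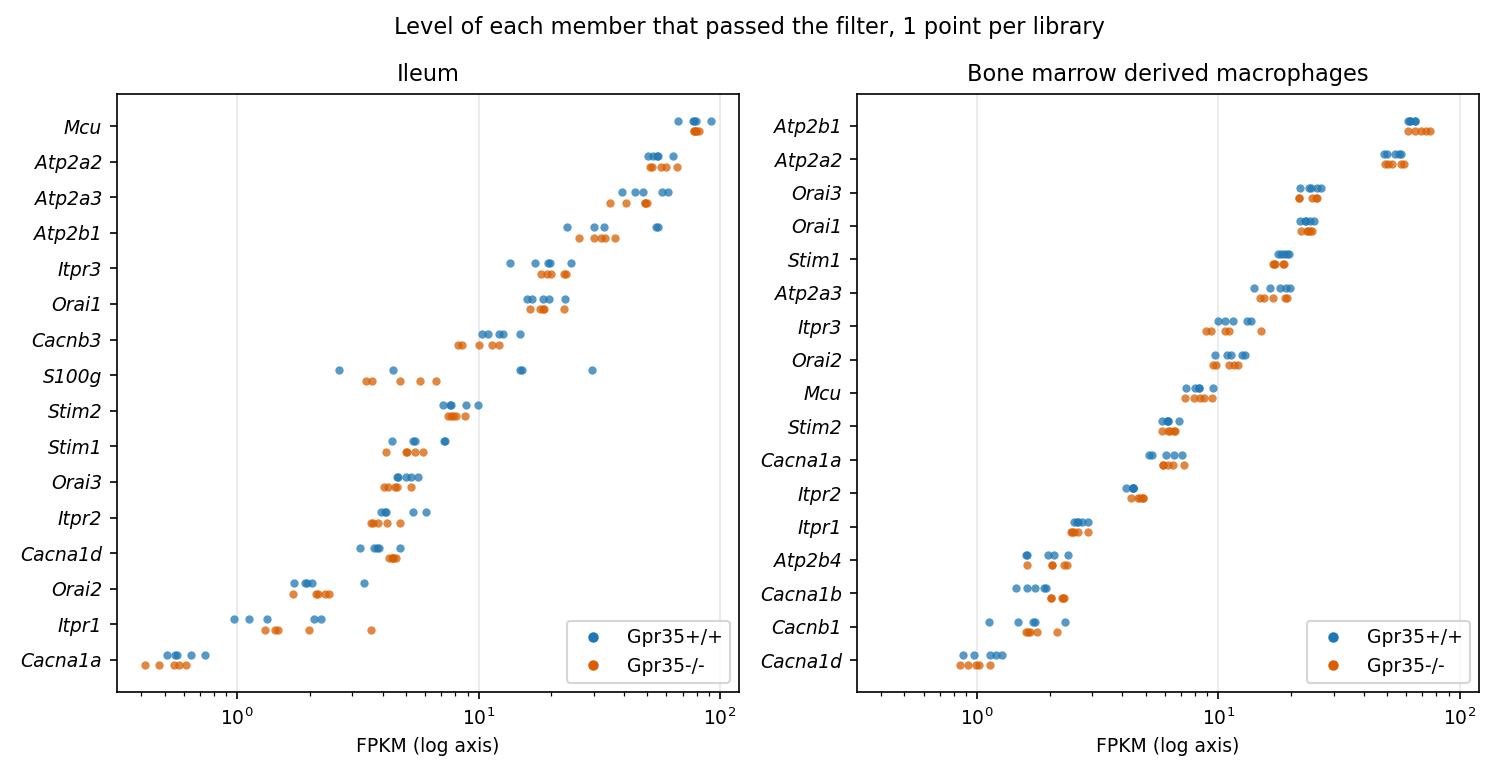
FPKM (log axis) of the members that passed the filter in ileum (16, left) and bone marrow derived macrophages (17, right), with 1 point per library and the genotypes in blue (Gpr35+/+) and orange (Gpr35-/-). Members are ordered by their mean, from Mcu at 79.2 FPKM in ileum and Atp2b1 at 65.9 in macrophages down, and S100g has the widest spread.

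A factor common to all genes of a table cancels in the share that a gene takes of its own family. These shares were therefore compared between Gpr35+/+ ileum and Gpr35+/+ macrophages. Errors in the estimate of single genes, as in those listed at 0, do not cancel, and each tissue had its own table. Of 15 shares tested, 13 differed, each with p = 0.0079 (exact permutation test, two-sided), the smallest that 5 against 5 libraries allow, and 0.0092 after Benjamini-Hochberg adjustment over the 15. One of these, Atp2b2, was set against macrophage values that were all listed at 0, and only its values are used. Of the others, Atp2b4 and Cacnb1 did not pass the filter in ileum, Cacnb3 did not in macrophages, and Cacnb4 passed in neither. Their shares in those tissues rest on values below the level taken as measured. Shares within a family sum to 100% and are not independent of each other, and all were drawn from the same 10 libraries. The store-operated pair was composed differently. Stim1 was 41.7% ± 7.73 of summed Stim FPKM in ileum and 75% ± 0.862 in macrophages (SD, n = 5). Stim2, which responds to smaller losses of store Ca2+, thus had the larger mean share in ileum and the smaller in macrophages. By library its share in Gpr35+/+ ileum ran from 49.5 to 66.9%. Among the channels that STIM opens, Orai1 made up 71.9% ± 3.75 of summed Orai FPKM in ileum but 39.5% ± 1.33 in macrophages. Orai3 took 19.5% ± 1.48 and 41.2% ± 0.630, and Orai2 took 8.66% ± 3.24 and 19.3% ± 0.927, so that in macrophages Orai1 and Orai3 were close to equal parts. The Gpr35-/- libraries, which were not in this test, had Stim1 at 39.0% ± 4.10 in ileum and 73.7% ± 1.73 in macrophages, and Orai1 at 73.7% ± 3.04 and 40.5% ± 2.77.

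The release channels and pumps also differed in make-up. Itpr3 was the main IP3 receptor of both tissues, with 74.8% ± 4.22 of summed Itpr FPKM in ileum and 62.4% ± 3.34 in macrophages. Itpr1, best known from neurons, took 6.04% ± 1.41 and 14.2% ± 1.08, so that Itpr3 was more dominant in ileum. The share of Itpr2 was 19.1% ± 3.87 and 23.4% ± 2.35 and did not pass (p = 0.071, exact permutation test, adjusted p = 0.077). Ileum held the reticular pumps Atp2a2 and Atp2a3 in similar amounts, with Atp2a2 at 52.8% ± 5.79, whereas in macrophages Atp2a2 was 75.3% ± 1.51 of their sum. Atp2b1 accounted for almost all of the plasma membrane pump FPKM, at 98.9% ± 0.507 in ileum and 97.0% ± 0.510 in macrophages, and Atp2b4 for 0.736% ± 0.242 and 2.96% ± 0.510. Atp2b2 had 0.321% ± 0.304 in ileum (a mean of 0.189% without library 1) and was listed at 0 in macrophages.

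The voltage-gated β subunits showed the widest shift. Cacnb3 was 97.4% ± 0.873 of summed Cacnb FPKM in ileum and 18.3% ± 3.6 in macrophages, where Cacnb1, the β subunit known from skeletal muscle, took 76.3% ± 4.57 against 1.48% ± 0.653 in ileum. Cacnb4 took 0.616% ± 0.208 and 5.07% ± 1.22, and Cacnb2 did not differ by this test (0.495% ± 0.243 and 0.369% ± 0.360, p = 0.52, exact permutation test). The sums behind these shares were 10.6 to 15.2 FPKM in ileum and 1.62 to 2.94 in macrophages. Cacnb3 did not exceed 0.476 FPKM in macrophages and Cacnb1 did not exceed 0.332 in ileum, both below the filter. The α1 subunits, given as a description over the 10 libraries of a table, summed to 4.63 to 5.92 FPKM in ileum, with the L-type subunit Cacna1d at 64.5 to 80.4%, and to 8.32 to 10.6 FPKM in macrophages, with Cacna1a at 61.2 to 67.9% and Cacna1b at 17.5 to 24.0%. Ileum is a mixture of cells, in which fewer cells of a type and less RNA per cell cannot be told apart, and smooth muscle markers (31.2 to 74.0 FPKM in all), enteroendocrine markers (362 to 609) and lymphocyte markers (91.6 to 275) were all found there. Their part in the shares was not tested.

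**Figure D2:**
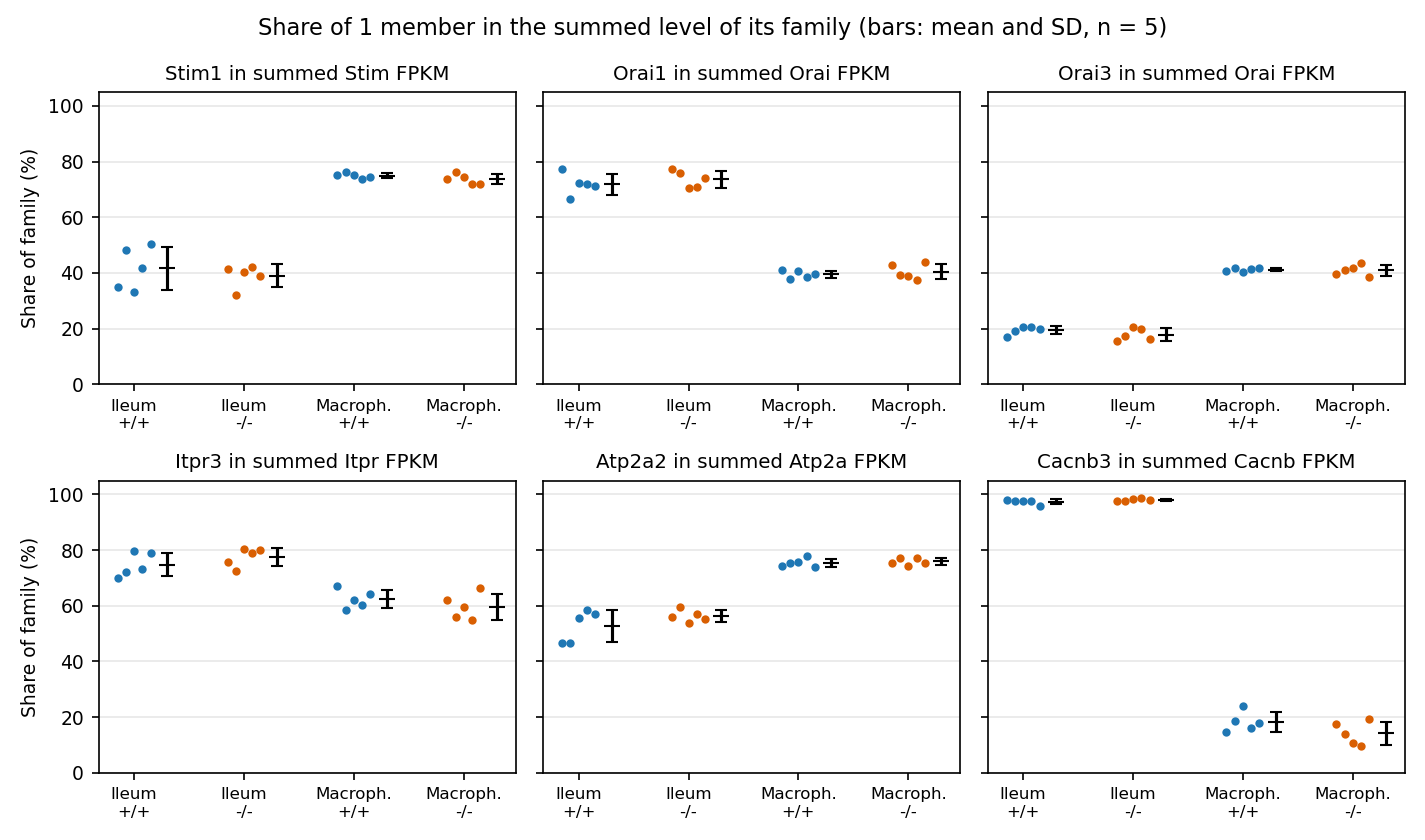
Share (%) of Stim1, Orai1, Orai3, Itpr3, Atp2a2 and Cacnb3 in the summed FPKM of their families, with 1 point per library of each genotype (+/+ blue, -/- orange) and tissue, and bars for mean and SD (n = 5). The tissues do not overlap between Gpr35+/+ groups in any panel, and Cacnb3 falls from 97.4% in ileum to 18.3% in macrophages, where it did not pass the filter.

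Whether loss of Gpr35 altered these genes was asked within each tissue, with limma on log2(FPKM + 0.5) over all genes that passed. Marker sums of the ileum overlapped between the genotypes in every list, and their differences were not tested. Lymphocyte markers had a median of 129 FPKM (91.6 to 271) in Gpr35+/+ and 249 (99.5 to 275) in Gpr35-/-. Distal markers had 31700 (13700 to 39500) and 20700 (13700 to 29200). Medians of enterocyte (8320 and 8620) and proximal markers (1750 and 1960) were closer, as were those of goblet and Paneth cells (21900 and 20400). The part of these markers in the ileum results was not tested. In the ileum none of the 16 members was called at an adjusted p under 0.05, against 0.0432% of all 11574 genes tested, and none under any of the alternatives run. None reached an unadjusted p under 0.05 by limma (4.34% of all genes), and in none did the genotypes fail to overlap (0.855% of all genes, 0.406% with Gpr35-/- higher and 0.449% with Gpr35-/- lower). The estimate was above 0 in 6 of 16 members, against 54.4% of all genes, and the median log2 change was -0.07, against 0.01 over all genes. Intervals (95%) lay within a 1.5-fold change in either direction for 13 of 16 members and for 82.6% of all genes tested. The other members were S100g, Atp2b1 and Itpr1.

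Cacnb3 and Cacna1d, of 3 voltage-gated members tested in ileum, had the smallest p of all 16 members. The Gpr35+/+ libraries held Cacnb3 at 12.6, 14.8, 10.9, 10.3 and 12.1 FPKM, and those of Gpr35-/- at 8.20, 8.54, 11.4, 12.2 and 10. The groups overlapped between 10.3 and 12.2 FPKM, and the log2 change was -0.26 (SE 0.13, adjusted p = 0.999 by limma, p = 0.11 by the exact permutation test). Cacna1d stood at 4.73, 3.70, 3.78, 3.85 and 3.23 FPKM in Gpr35+/+ and at 4.53, 4.25, 4.41, 4.43 and 4.38 in Gpr35-/-. All Gpr35-/- libraries lay above 4 of the 5 Gpr35+/+ libraries and below the remaining one. The change was 0.18 (SE 0.09, p = 0.073 by limma), and the exact permutation test of this gene alone, 1 of 16 members tested, gave p = 0.048. Cacna1d overlaps Chdh and Dcp1a on the opposite strand, and how counting treated strand is not given in the sources used here.

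The genes of store-operated entry and release did not pass in ileum either. Orai3 was at 5.00, 4.58, 5.63, 5.23 and 4.65 FPKM in Gpr35+/+ and at 4.52, 4.22, 5.26, 4.59 and 4.04 in Gpr35-/- ileum, a log2 change of -0.14 (SE 0.087). Itpr2 was at 6.05, 5.33, 4.11, 3.94 and 4.15 and at 3.83, 3.66, 3.57, 4.73 and 4.16 FPKM, a log2 change of -0.20 (SE 0.12, and -0.12 without Gpr35+/+ library 1). In both genes the means were lower in Gpr35-/- and the ranges overlapped. Stim2, with the larger mean of the STIM pair here, was at 9.92, 7.68, 8.83, 7.60 and 7.12 FPKM in Gpr35+/+ and at 7.72, 8.79, 7.48, 8.03 and 7.85 in Gpr35-/-. Orai1 was at 22.7, 15.8, 19.6, 18.5 and 16.7 FPKM and at 22.6, 18.6, 18.0, 16.4 and 18.4. In both, the Gpr35-/- libraries lay inside the range of Gpr35+/+. The intervals of their log2 changes reached from -0.24 to 0.17 (Stim2) and from -0.23 to 0.26 (Orai1). Itpr3 was at 19.4, 17.2, 24.1, 13.5 and 19.8 FPKM in Gpr35+/+ and at 18.1, 19.2, 19.9, 23.1 and 22.5 in Gpr35-/-, again with overlap. Stim1 (-0.18, SE 0.14), Orai2 (-0.01, SE 0.15) and Itpr1 (0.24, SE 0.25) had intervals of the log2 change that included 0.

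Among the pumps, Atp2a2 was at 50.3, 53.0, 55.5, 54.7 and 63.7 FPKM in Gpr35+/+ and at 52.1, 51.5, 56.9, 66.1 and 59.9 in Gpr35-/- ileum, with overlap. Atp2a3 averaged 50 and 44.7 FPKM. Atp2b1, which expels Ca2+ from the enterocyte, was at 30, 54.3, 23.3, 33.0 and 55.2 FPKM in Gpr35+/+ and at 26.1, 33.3, 30.1, 36.9 and 32.1 in Gpr35-/-. Gpr35+/+ libraries 2 and 5 stood far above all others. The log2 change was -0.23 (SE 0.22), -0.09 without either of these libraries and -0.40 without Gpr35+/+ library 3. Mcu was at 92.0, 66.8, 77.6, 79.7 and 78.1 FPKM in Gpr35+/+ and at 79.9, 82.2, 77.9, 79.9 and 77.9 in Gpr35-/-, which thus lay close together inside the range of Gpr35+/+ (interval of the log2 change -0.17 to 0.21). Cacna1a averaged 0.601 and 0.524 FPKM.

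S100g (calbindin-D9k), which ferries Ca2+ through the enterocyte, had the log2 change farthest from 0, and with the largest standard error, of the 16 members tested in ileum. Its levels were 4.44, 14.9, 2.63, 29.4 and 15.2 FPKM in Gpr35+/+ and 5.74, 3.6, 4.73, 3.43 and 6.67 in Gpr35-/-. Gpr35+/+ libraries 2, 4 and 5 stood above every Gpr35-/- library, whereas libraries 1 and 3 lay among or below them. The means were 13.3 and 4.83 FPKM, the log2 change -0.98 (SE 0.56, interval -2.23 to 0.27, p = 0.11 by limma), and the exact permutation test gave p = 0.15. Without Gpr35+/+ library 4 the log2 change was -0.59, and without library 3 it was -1.40 with an unadjusted p under 0.05 (adjusted p = 0.519, limma). Summed distal markers were 39500 FPKM in Gpr35+/+ library 4 and 13700 in library 3, the highest and among the lowest of the ileum, and proximal markers 1750 and 5390. Gpr35+/+ library 1 had 33900 FPKM of distal markers with S100g at 4.44, and Gpr35-/- library 4 had 29200 with S100g at 3.43. The part of these markers in the S100g values was not tested. Trpv6, the entry channel that works with S100g, was listed at 0 in 8 of 10 ileum libraries, with 0.0233 FPKM in Gpr35+/+ library 5 and 0.00938 in Gpr35-/- library 1. In macrophages S100g was found only in Gpr35+/+ libraries 3 and 4 (0.129 and 0.137 FPKM), and Trpv6 only in Gpr35+/+ library 3 (0.0131). Both S100g libraries held Fabp6. So did Gpr35+/+ libraries 1, 2 and 5 and Gpr35-/- libraries 1 and 5, where S100g was listed at 0. A link of S100g to Fabp6 was not tested.

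**Figure D3:**
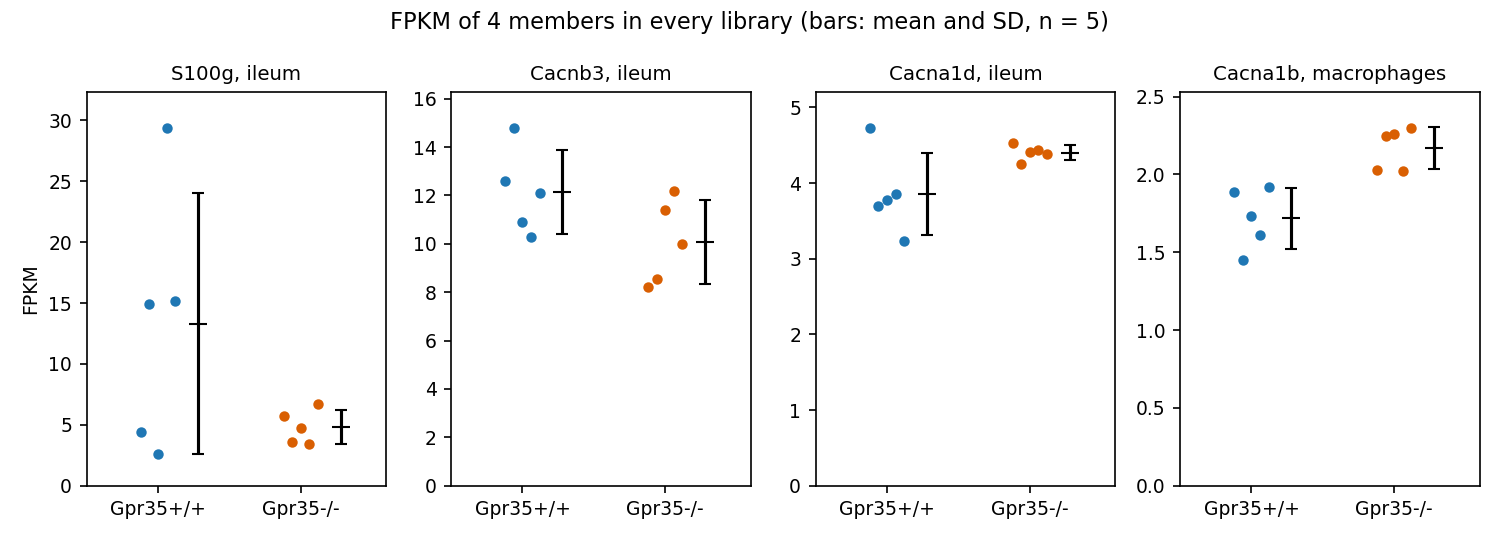
FPKM of S100g, Cacnb3 and Cacna1d in ileum and of Cacna1b in macrophages, with 1 point per library for Gpr35+/+ (blue) and Gpr35-/- (orange), bars for mean and SD (n = 5) and axes from 0. The genotypes overlap in the 3 ileum panels, and all Cacna1b points of Gpr35-/- (2.02 to 2.30) lie above those of Gpr35+/+ (1.45 to 1.92).

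The start regions of this pair, known as genes that vitamin D induces, are printed because S100g was measured in ileum and Trpv6 was at or near 0 there. They are the 300 bases from 250 before to 50 after the RefSeq start, on the minus strand of GRCm38.p6, at chrX:162964550-162964849 for S100g and chr6:41636356-41636655 for Trpv6. S100g itself (chrX:162961992-162964599) lies within the span of Ctps2 on the opposite strand. Capitals mark TATAAA, the letters of a TATA box, and AGGTCA, the half-site letters shared by many nuclear receptors, on either strand (TGACCT is AGGTCA read from the other strand).
S100g: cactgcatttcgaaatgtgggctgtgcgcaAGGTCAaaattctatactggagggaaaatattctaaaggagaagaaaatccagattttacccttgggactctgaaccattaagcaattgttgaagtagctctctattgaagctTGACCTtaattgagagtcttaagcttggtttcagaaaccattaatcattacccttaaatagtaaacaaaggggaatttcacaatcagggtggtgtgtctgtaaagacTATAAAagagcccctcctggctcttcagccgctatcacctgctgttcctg
Trpv6: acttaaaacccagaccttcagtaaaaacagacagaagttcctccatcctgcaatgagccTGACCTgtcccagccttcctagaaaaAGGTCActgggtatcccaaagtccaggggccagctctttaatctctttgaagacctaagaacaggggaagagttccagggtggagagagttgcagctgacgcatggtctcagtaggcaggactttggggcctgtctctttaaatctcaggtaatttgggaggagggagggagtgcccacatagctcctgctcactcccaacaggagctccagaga
S100g holds 1 TATAAA and 2 AGGTCA, and Trpv6 no TATAAA and 2 AGGTCA. Of all 32851 promoters given by RefSeq, 13.6% hold TATAAA and 16.3% AGGTCA on either strand, and of 48 promoter entries for 36 of the 45 members 4.17% and 12.5% do. Such matches describe the letters of these windows only.

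In macrophages, too, no member was called. The count was 0 of 17 at an adjusted p under 0.05 by limma, against 0.0525% of 11437 genes tested, and 0 under every alternative run. At an unadjusted p under 0.05 there was 1 of 17 (5.88%, against 10.5% of all genes), and the same gene, Cacna1b, was the only member whose genotypes did not overlap (1.96% of all genes did not, and 1.04% with Gpr35-/- higher). The estimate was above 0 in 10 of 17 members, against 51.7% of all genes. Macrophage libraries were closer to each other than ileum libraries, with a median standard error of the members' log2 changes of 0.071 against 0.125. All 17 intervals lay within a 1.5-fold change, as did 93.9% of those of all genes tested.

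Cacna1b (chr2:24603887-24763152), the α1 subunit of N-type channels, was at 1.89, 1.45, 1.73, 1.61 and 1.92 FPKM in Gpr35+/+ and at 2.03, 2.25, 2.26, 2.02 and 2.30 in Gpr35-/- macrophages. Each Gpr35-/- library lay above each Gpr35+/+ library, with the nearest values at 2.02 and 1.92 and means of 2.17 and 1.72. The log2 change was 0.27 (SE 0.071, interval 0.11 to 0.43, p = 0.0032, adjusted p = 0.274 by limma), and the exact permutation test of this gene alone gave p = 0.0079. Adjusted over all genes it did not pass, also with weights per library (adjusted p = 0.0616, limma). With Gpr35-/- libraries 1 and 5 only, which hold Fabp6 as all Gpr35+/+ libraries do, the log2 change was 0.27 (SE 0.109, adjusted p = 0.647 by limma). The part of Fabp6 in the Cacna1b values was not tested. In ileum Cacna1b did not exceed 0.110 FPKM. Its fellow α1 subunits showed no such separation: Cacna1a was at 7.04, 5.14, 6.54, 5.31 and 6.07 FPKM in Gpr35+/+ and at 7.20, 5.89, 6.18, 5.87 and 6.49 in Gpr35-/-. Cacna1d had a log2 change of -0.10 (SE 0.086), with 0.875, 1.20, 0.968, 1.27 and 1.13 FPKM in Gpr35+/+ and 0.985, 0.849, 1.13, 0.918 and 1.02 in Gpr35-/-. Both overlapped between genotypes. So did Cacnb1, the main β subunit here, at 1.73, 1.47, 1.12, 2.31 and 1.70 and at 1.62, 1.65, 2.14, 1.77 and 1.6 FPKM.

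The release channel Itpr2 followed Cacna1b by p in macrophages. It stood at 4.12, 4.43, 4.43, 4.42 and 4.44 FPKM in Gpr35+/+ and at 4.36, 4.87, 4.62, 4.86 and 4.74 in Gpr35-/-, where 4 of 5 libraries lay above all of Gpr35+/+. The change was 0.09 (SE 0.043, p = 0.057 by limma, p = 0.040 by the exact permutation test of this gene alone, 1 of 17). Atp2b1, the most abundant member, was at 61.9, 65.3, 65.5, 60.8 and 62.1 FPKM in Gpr35+/+ and at 68.9, 75.5, 65.0, 72.7 and 61.1 in Gpr35-/-, a log2 change of 0.12 (SE 0.055). Stim1 was at 17.7, 19.6, 18.6, 19.3 and 18.2 and at 17.2, 18.7, 18.5, 17.0 and 16.9 FPKM, a log2 change of -0.08 (SE 0.042). These last differences were small and the groups overlapped. Orai3 was at 21.7, 25.5, 23.7, 26.6 and 24.1 FPKM in Gpr35+/+ and at 21.6, 24.4, 25.7, 25.3 and 21.6 in Gpr35-/-. The reticular pump Atp2a2 was at 56.9, 49.7, 56.2, 48.7 and 53.8 and at 57.1, 52.6, 48.8, 50.5 and 58.6 FPKM. Mcu was at 9.52, 7.36, 8.32, 8.30 and 8.02 and at 8.69, 7.89, 7.28, 8.37 and 9.42 FPKM. Means of these genes, of Orai1 (23.3 and 23.4 FPKM) and of Stim2 (6.23 and 6.30) were nearly equal, with intervals of the log2 change inside -0.18 to 0.17. With Gpr35-/- libraries 1 and 5 only, the log2 changes were -0.16 for Orai3, 0.13 for Atp2a2 and 0.12 for Mcu, and Orai3 and Atp2a2 no longer overlapped (11.4% of all genes did not in that comparison). Itpr3, the main IP3 receptor, was at 13.6, 10, 11.5, 10.6 and 13.1 FPKM in Gpr35+/+ and spread wider in Gpr35-/-, at 11.1, 9.35, 10.6, 8.90 and 15.

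**Figure D4:**
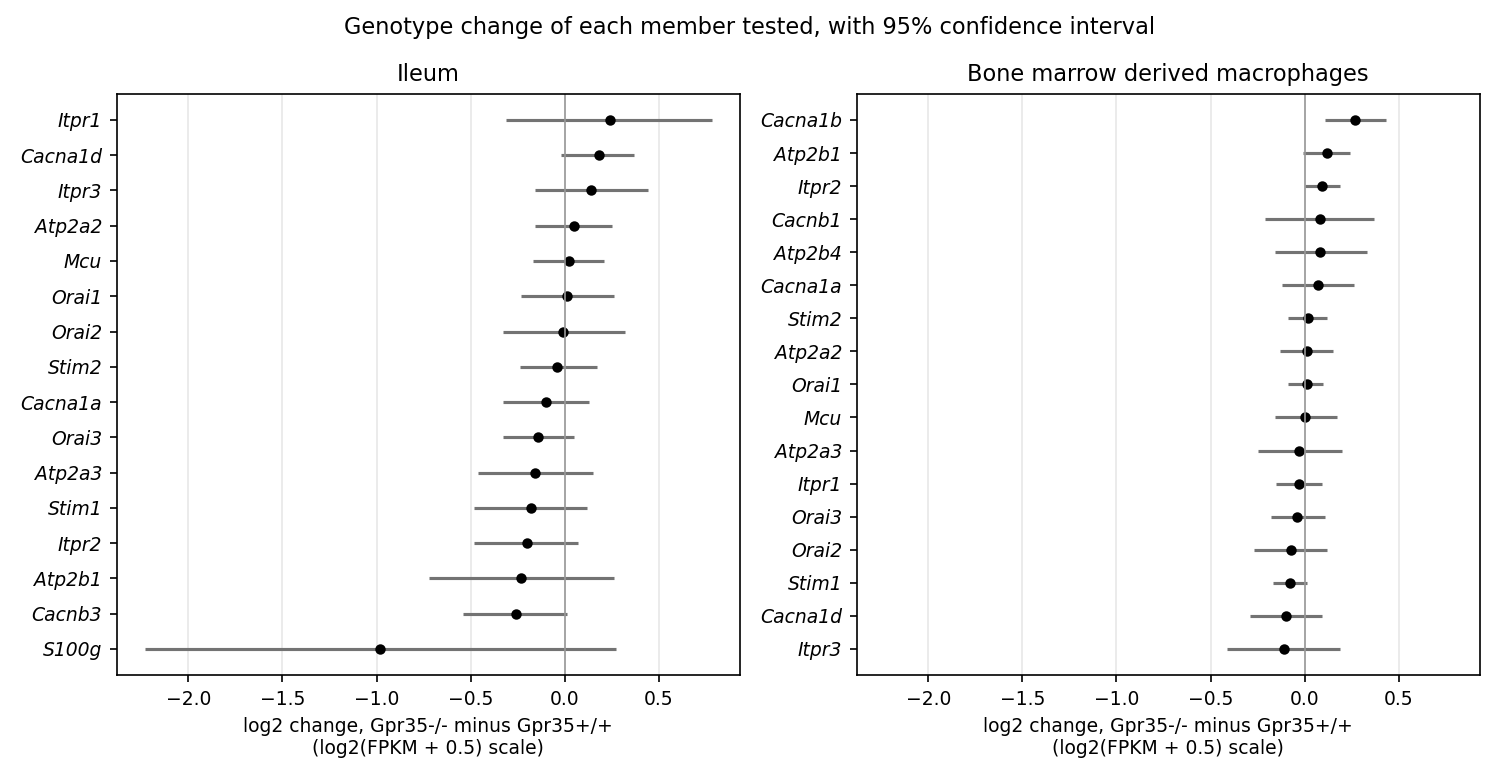
Log2 change (Gpr35-/- minus Gpr35+/+, log2(FPKM + 0.5) scale) of the 16 members tested in ileum (left) and the 17 in macrophages (right), with points for the estimate and lines for its 95% confidence interval. In ileum every interval includes 0 and that of S100g is the widest, and in macrophages that of Cacna1b (0.11 to 0.43) lies above 0.

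Whether a member's response to loss of Gpr35 differed between the tissues was tested for the 14 measured in both. None was called by limma (0.01% of 9953 genes were), and 2 had an unadjusted p under 0.05 (14.3%, against 5.47% of all genes). The difference was above 0 in 7 of 14 members, against 45.7% of all genes. With 1 library left out, 0 to 3 members had an unadjusted p under 0.05, with 0 without ileum Gpr35-/- library 1 or macrophage Gpr35-/- library 2 or 4, and 3 (Atp2b1, Cacna1d and Itpr2) without ileum Gpr35+/+ library 3. Cacna1d had a log2 change of 0.18 in ileum and -0.10 in macrophages, a difference of -0.28 (SE 0.12, adjusted p = 0.863 by limma). Itpr2 went the other way, with -0.20 in ileum and 0.09 in macrophages, a difference of 0.30 (SE 0.13, adjusted p = 0.876 by limma). For the store-operated genes the intervals of the difference were -0.21 to 0.41 for Stim1, -0.26 to 0.25 for Orai1 and -0.12 to 0.32 for Orai3.

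Of genes that act with the members, 8 lists held 148 genes found in the tables, 85 tested in ileum and 90 in macrophages. None was called by limma in either tissue, and 7 (8.24%, against 4.34% of all genes) in ileum and 6 (6.67%, against 10.5%) in macrophages had an unadjusted p under 0.05. In ileum, Slc30a10, a manganese transporter that vitamin D is known to induce, was at 10.6, 8.78, 7.31, 10.2 and 11.2 FPKM in Gpr35+/+ and at 5.07, 6.99, 4.86, 6.25 and 7.05 in Gpr35-/-. The genotypes did not overlap (as in 0.855% of all genes) and the log2 change was -0.63 (SE 0.14, adjusted p = 0.666 by limma). The vitamin D receptor Vdr itself ranged over 65.6 to 84.7 FPKM in Gpr35+/+ and 72.0 to 89.2 in Gpr35-/- ileum. Trpm4, a channel that Ca2+ opens and that carries monovalent ions, also did not overlap, at 62.7 ± 4.77 and 53.6 ± 2.49 FPKM (log2 change -0.22, SE 0.076, adjusted p = 0.999 by limma). Mcub, a subunit that dampens the mitochondrial uniporter, was at 0.773 ± 0.206 and 0.434 ± 0.0857 FPKM, and Cracr2a, a regulator of ORAI channels, at 1.26 ± 0.237 and 0.704 ± 0.327, both with overlap. These did not pass over all genes either (adjusted p = 0.999 by limma for each). The Golgi pump Atp2c2 was at 3.47 ± 0.333 and 2.91 ± 0.210 FPKM and the channel Trpv3 at 0.811 ± 0.140 and 1.07 ± 0.152. In macrophages, Mcoln2, an endolysosomal channel, was at 21.7 ± 1.02 and 23.7 ± 0.852 FPKM (adjusted p = 0.355 by limma), and Stac2, a regulator of L-type channels, at 4.64 ± 0.761 and 6.24 ± 1.02 (adjusted p = 0.355 by limma). Both had higher means in Gpr35-/- and overlapped. The G protein subunit Gna11 was at 4.03 ± 0.292 and 3.56 ± 0.204 FPKM and the phospholipase Plcb2, which makes IP3, at 12.2 ± 1.91 and 10.3 ± 0.704. Canx, a Ca2+-binding chaperone of the reticulum, was at 133 ± 10.8 and 148 ± 9.45 FPKM, and Micu2, a gatekeeper of the uniporter, at 44.7 ± 0.650 and 46.7 ± 1.18.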

How the data were processed

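RNA was extracted with a column kit, libraries were made with a stranded mRNA kit, and 50-base single-end reads were sequenced. The authors deposited 1 table of FPKM per tissue, on build GRCm38 per the labels. The aligner, the counter, their annotation and the depth were not given in the sources used here, so that no counting error can be attached to a value. Of the ileum rows, 27 with names turned into dates were left out. Gene names were matched to GENCODE and RefSeq (99.4%). No 2 libraries held identical values.

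The members and lists were chosen with earlier results of these data known. Genes that reached 0.5 FPKM in 5 or more libraries of a table were tested on log2(FPKM + 0.5). The test was that of limma 3.58.1 (R 4.3.3) with a trended, robust spread and Benjamini-Hochberg adjustment over all genes tested. A fold change on this scale understates that of low genes. Rows listed at 0 in 1 genotype and at 1 FPKM or more throughout the other were left out (5 in ileum, 2 in macrophages). The difference between tissues was a contrast over all 20 libraries. Single genes and shares were compared by exact permutation tests over all 252 assignments (SciPy 1.17.1). The fit was tested on simulated data. Named with every library's value were the 5 tested members with the smallest p and the top member of each family per tissue, S100g and Trpv6, and of each related list the 2 with the smallest p could be named.

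Alternatives were pseudocounts of 0.1 and 1, no filter and a stricter one, quantile normalization, weights per library, no trend, rows at 0 kept, the replicate number as a block, each library left out and Gpr35-/- macrophage libraries 1 and 5 only.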

Additional observations from a re-analysis of the deposited data

Results flagged for a closer look

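Of 66 groups of 5 libraries examined, 2 had a library far from the others, measured by the gap to the nearest library over the whole range of the group. Chance gives about 1 in 20 groups. Orai2, a store-operated channel, was at 3.36 FPKM in Gpr35+/+ ileum library 2, with the next at 2.04 (gap 0.803 of the range). That library also had the highest lymphocyte marker sum of the Gpr35+/+ ileum, 271 FPKM against 91.6 to 162, and the lowest enterocyte marker sum, 5240 against 7300 to 12300. Gpr35-/- libraries 1, 3, 4 and 5 had lymphocyte sums of 262, 249, 275 and 221 FPKM with Orai2 at no more than 2.40. The part of these markers in the Orai2 value was not tested. Itpr2 was at 4.12 FPKM in Gpr35+/+ macrophage library 1, with the next at 4.42 (gap 0.933 of the range), a difference that stands out because the other 4 libraries lie between 4.42 and 4.44.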

How the results depend on the processing

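The number of members called stayed at 0 in ileum, in macrophages and for the difference between tissues under each alternative run, and each of the 15 shares kept its direction and its side of the threshold. Related genes called stayed at 0 within each tissue except with weights per library in macrophages (1, Stac2), and for the difference between tissues Mcub was called without ileum Gpr35+/+ library 3. Members with an unadjusted p under 0.05 in ileum numbered 1 without the filter (Cacnb1), 2 with weights per library (Cacna1d and S100g) and 0 to 1 with a library left out. In macrophages the 1 became 3 without the filter (Cacna1b, Itpr2 and Ryr1) and with weights (Atp2b1, Cacna1b and Itpr2), 2 with quantile normalization, without the trend, under the replicate block and with Gpr35-/- libraries 1 and 5 only, and 1 to 3 with a library left out. Cacna1b was among them each time. Members whose genotypes did not overlap numbered 2 in ileum without the filter (Ryr2 and Ryr3) and 0 to 1 with a library left out. Ryr2 and Ryr3 were at no more than 0.0251 FPKM. The depth inferred from the size of 1 read was 1 to 1.865 in Gpr35+/+ and 1.57 to 2.523 in Gpr35-/- ileum, and its part was not tested. In macrophages, members without overlap numbered 4 with Gpr35-/- libraries 1 and 5 only, and 1 to 2 with a library left out. The 4 were Atp2a2 and Cacna1b, higher in Gpr35-/-, and Orai3 and Stim1, lower (23.5% of members against 11.4% of all genes).

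The following log2 changes turned sign. In macrophages Atp2a2 was -0.016 and Mcu -0.015 with weights, and Cacnb1 was -0.014 and Itpr3 0.135 with Gpr35-/- libraries 1 and 5 only. With a library left out, ileum Stim2 ranged from -0.082 to 0.030, Mcu from -0.037 to 0.078, Orai1 from -0.055 to 0.084 and Atp2a2 from -0.0072 to 0.097, and macrophage Atp2a2 from -0.021 to 0.045, Mcu from -0.039 to 0.052 and Cacnb1 from -0.022 to 0.177. The causes were not tested.

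Whether replicate numbers pair the libraries is not known. Same-numbered Gpr35+/+ and Gpr35-/- libraries had correlations of their deviations of -0.422 to 0.008 in ileum and -0.157 to 0.269 in macrophages. The library's own number was the best match for macrophage numbers 4 (0.083) and 5 (0.269) and for no ileum number. Correlations of so few libraries cannot exclude a pairing. With the replicate block 0 members were called in ileum, in macrophages and for the difference. Members with an unadjusted p under 0.05 by limma then numbered 0 in ileum and for the difference, and 2 in macrophages (Atp2b1 and Cacna1b).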
